A study of Homo sapiens with 3 samples.

Results

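Keratins are the subunits of the intermediate filaments of epithelial cells, and their genes were compared here between MCF10A cells with an obscurin shRNA and MCF10A cells with a control shRNA, all treated with etoposide. The members were the features whose platform annotation gave exactly 1 symbol made of KRT, a number and at most a letter A, B or C. Keratin-associated protein genes and pseudogenes were left out. This gave 55 features of 46 genes, and 41 genes had a value on at least 2 of 3 arrays, of 16944 genes tested on the same footing. Of the 41, 23 are type I and 18 are type II keratins, 28 had a value on 3 arrays, and 34 were measured by 1 feature each.

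Every array held RNA of the obscurin shRNA cells, coupled to Cy5 as channel 1, together with RNA of the scrambled control shRNA cells, coupled to Cy3 as channel 2. MCF10A is an immortalised, non-tumorigenic line of human breast epithelium. Both cultures carried a stably expressed shRNA kept under puromycin at 1.5 ug/mL and had spent 48 hours in 150 uM etoposide, which traps topoisomerase II on broken DNA, and no untreated cells were analysed here. Per the labels, 1 obscurin shRNA and 1 control shRNA were used, the 3 arrays are independent replicates (p-values measure the spread between these arrays), and the dyes were not swapped, so a dye effect and the shRNA cannot be told apart. The deposited values are log2 ratios without intensities: a ratio is a difference between both cultures and gives no level of a gene, so the epithelial identity of the cells could not be checked against its markers. Its direction is not stated, and a value above 0 likely means higher in the obscurin shRNA cells because their RNA was in channel 1. Obscurin itself was not analysed here. In cultures measured in bulk, fewer cells of a kind and less RNA per cell cannot be told apart.

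Keratin filaments are built from obligate pairs of a type I (acidic) and a type II (basic to neutral) chain, and an unpaired chain is degraded. The genes lie in a type I and a type II cluster on different chromosomes, with the type I gene KRT18 inside the type II cluster. Which pair is made marks the kind of epithelium: KRT8 with KRT18 in simple, single-layered epithelia and luminal breast cells, KRT5 with KRT14 in the basal layer of stratified epithelia and in basal breast cells, KRT6 with KRT16 in activated or wounded epidermis, and further pairs in differentiating layers, the inner root sheath and the shaft of hair. Filaments anchor to desmosomes and hemidesmosomes and carry mechanical load.

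All values below are log2 ratios relative to the array's median over all features, unless stated otherwise. That median was 1.49, 1.28 and 1.39 as deposited on arrays 1, 2 and 3, and the value repeated most often on each array, the centre of a narrow peak, lay 0.57, 0.69 and 0.61 above it. The tested genes as a whole had a median of -0.52 on this scale, with 64.8% of them below 0, so a value slightly below 0 was ordinary. Whether a value stands beside the right name is uncertain over much of the arrays. Transcripts annotated to at least 10 features agreed better with themselves when each value was read 1 feature row (170 features) earlier in 10 of 15 stretches, and better at the own place in 5 of 15. The better place of a stretch is whichever of the 2 agreed better there; values are read at the own place unless stated.

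No keratin gene passed the threshold of an adjusted p of 0.05 (limma, adjusted over all 16944 genes), above or below, and neither did any other gene (0% called in each direction). At an unadjusted limma p under 0.05, 12 of 41 keratins (29.3%) lay below 0, beside 19.7% of all genes, and 0 of 41 lay above, beside 0.838% of all genes. The 12 were KRT75, KRT18, KRT25, KRT8, KRT73, KRT16, KRT77, KRT3, KRT19, KRT72, KRT14 and KRT83, with means between -4.05 and -1.54 and adjusted p between 0.0788 and 0.204. They span simple epithelial, activation, basal, cornea, sweat duct and hair follicle keratins. On every array with a value, 16 of 41 keratins (39.0%) lay below 0 against 32.4% of all genes, and 10 of 41 (24.4%) lay above 0 against 20.4%. The median over the 41 keratins was -0.59, a difference of -0.06 from all tested genes that ranged from -0.71 without array 1 to 0.35 without array 2. In all, 14 of 41 keratins had a mean above 0, beside 35.2% of all genes.

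**Figure D1:**
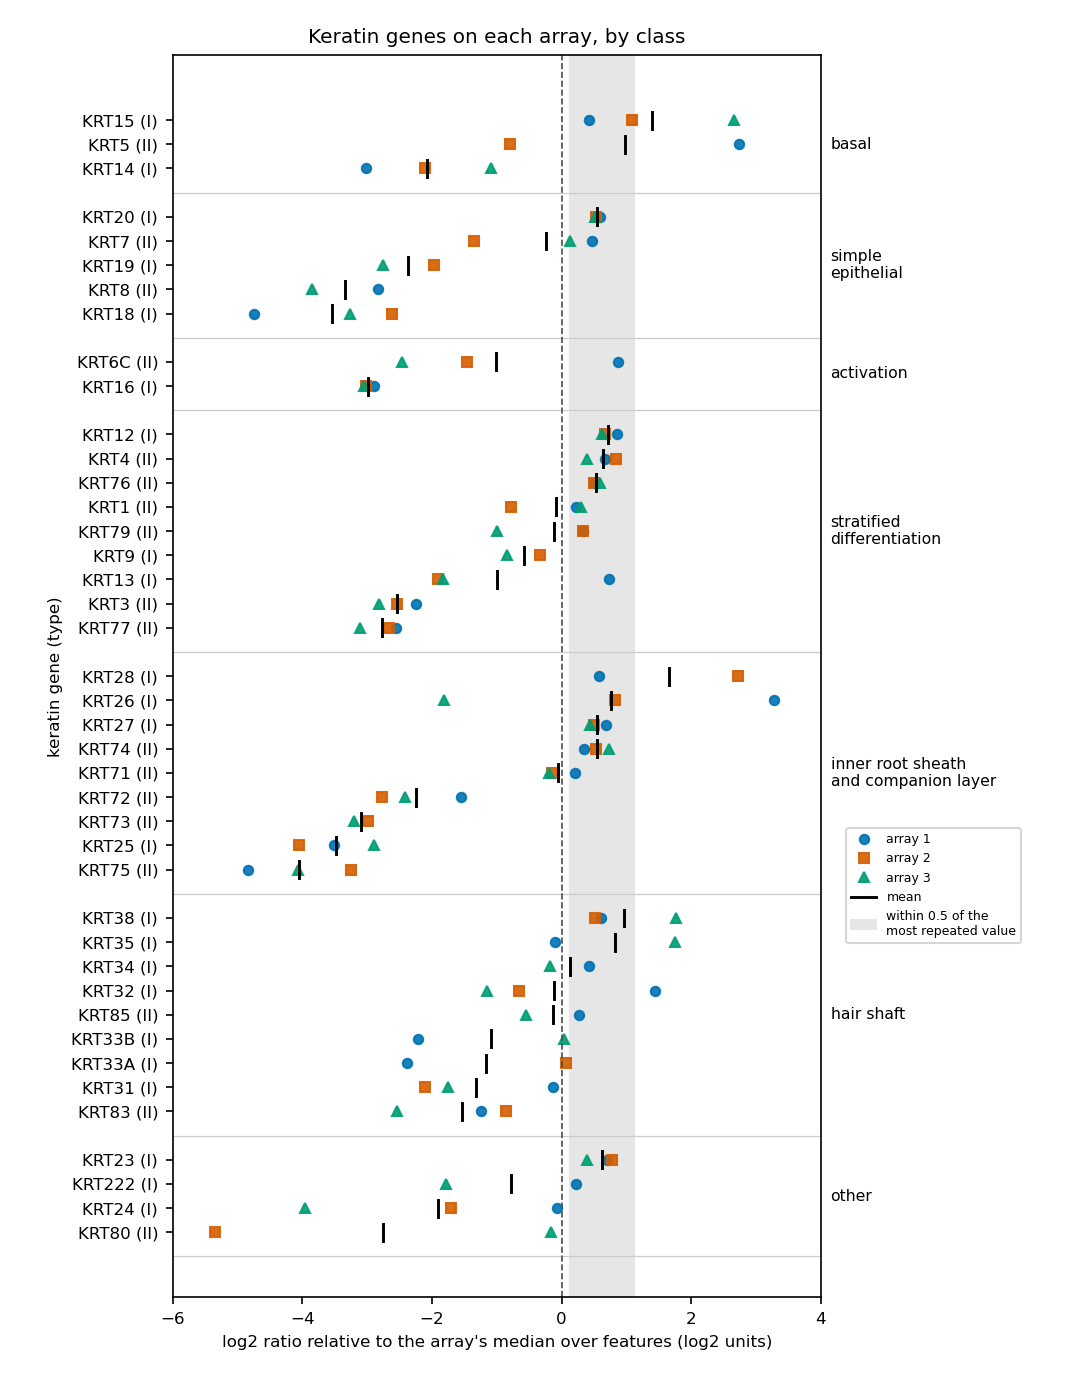
Log2 ratio of each of the 41 keratin genes relative to the array's median over features (x axis, log2 units), with a marker for each array, a bar for the mean and the type in brackets, grouped by class. The grey band is within 0.5 of the most repeated value (mean of 3 arrays). KRT16, KRT77, KRT3, KRT25 and KRT75 lie left of the band on every array, while KRT20, KRT76, KRT27, KRT74, KRT12, KRT4 and KRT23 lie inside it on every array.

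Whether keratins were called depended on where 0 was placed. When 0 was put on the most repeated value instead, 7 of 41 keratins (17.1%) passed the adjusted threshold below, beside 8.22% of all genes. Above it, 0 keratins passed, beside 0.0118% of all genes. At an unadjusted limma p under 0.05, 14 of 41 keratins lay below and 0 above, beside 31.1% and 0.13% of all genes. The 7 past the adjusted threshold were KRT75, KRT25, KRT16, KRT77 and KRT3 at an adjusted limma p of 0.0365 each, KRT18 at 0.0385 and KRT72 at 0.0441. With the values as deposited, 0 keratins passed the adjusted threshold. At an unadjusted limma p under 0.05, 13 of 41 then lay above 0 and 8 of 41 below, beside 30.7% and 5.28% of all genes. With 0 at the median of the tested genes, 6 of 41 lay above at that p, beside 4.98% of all genes. There 11 of 41 lay below, beside 14.7% of all genes. The 12 low keratins had means below 0 under each of these zeros, but this was fixed in advance. Moving 0 shifts every value of an array alike, upward by 1.49 at most, and these means were -1.54 or lower. With the values as deposited, 8 of the 12 passed at that p.

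Some keratins lay inside the narrow peak on every array. All values of 7 of 41 keratins (17.1%) were within 0.5 of the most repeated value, beside 9.61% of all genes. This share depends on how many feature values a gene has. Counted by value, 41 of 127 values of the tested keratins (32.3%) lay there, beside 38.3% of all feature values. The 7 keratins were KRT4, KRT12, KRT20, KRT23, KRT27, KRT74 and KRT76, which outside these data are known from mucosa, cornea, gut and hair follicle. The 12 keratins with an unadjusted limma p under 0.05 had 0 of 48 feature values in that range. Their means lay far below 0 and the range lies above it, so this largely follows from how they were picked. Of the keratin features with a value on arrays 1, 2 and 3, 47.7%, 26.8% and 25.5% were within 0.5 of the peak, beside 39.7%, 36.2% and 38.9% of all features. By class, 14 of 28 values of stratified differentiation keratins, 9 of 25 of inner root sheath and companion layer, 6 of 24 of hair shaft, 5 of 20 of simple epithelial, 2 of 11 of basal and 1 of 9 of activation keratins lay there.

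**Figure D2:**
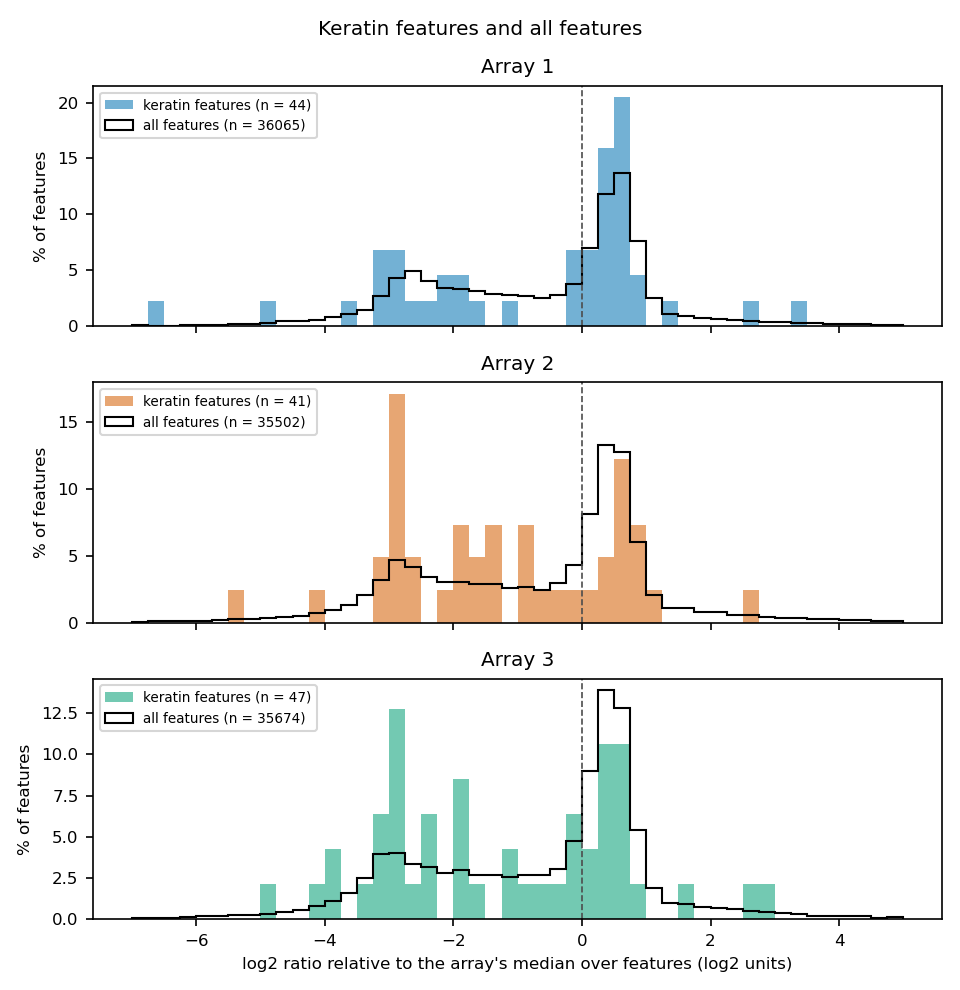
Share of features (y axis, %) by log2 ratio relative to the array's median (x axis, log2 units, bins of 0.25 from -7 to 5, values outside not drawn) on each array, for keratin features (filled) and all features (line). Both have a peak to the right of 0, and on arrays 2 and 3 a larger share of keratin features lies near -3 than of all features.

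Simple epithelial keratins lay lowest of the classes with more than 2 members, with a median of -2.37, a difference of -1.85 from all tested genes. KRT18, the type I chain of simple epithelia, had -4.75, -2.62 and -3.26 on arrays 1, 2 and 3, a mean of -3.54 ± 1.10 (SD, n = 3 arrays; 95% interval -5.11 to -1.98; limma adjusted p = 0.083). All 3 values were below 0, and array 1 was lowest. It was measured by 4 features, and 10 of 10 of their values were below 0. KRT8, its type II partner, had -2.84 on array 1 and -3.85 on array 3 (adjusted p = 0.116), but each array was read from a different feature of the gene. KRT19, a type I chain of luminal breast cells that lacks a tail domain, had -1.97 on array 2 and -2.76 on array 3 (adjusted p = 0.157). These 3 genes therefore lay below 0 wherever they had a value. KRT7, a type II chain of glandular ducts, had 0.48, -1.36 and 0.14, with array 2 on the other side of 0 from arrays 1 and 3. At the better place KRT7 had -2.92, -1.22 and -1.73, below 0 on every array. KRT20, a type I chain of gut and urothelium, had 0.59, 0.54 and 0.51, a mean of 0.55 ± 0.04 (SD, n = 3), inside the narrow peak on all arrays. The class median rested on few genes. Without array 3 the difference from all tested genes was 0.13, without array 1 -0.95 and without array 2 -0.93, and with the genes valued on 3 arrays alone (KRT7, KRT18 and KRT20) it was 0.36.

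Basal keratins did not lie together, and their median of 0.97 is the value of KRT5, which had a value on 2 arrays. Its difference from all tested genes was 1.49, against 0.33 without array 2, -1.28 at the better place and -0.81 read 1 row earlier, so its direction depended on the place. KRT14, the type I chain of basal cells, had -3.02, -2.10 and -1.09, a mean of -2.07 ± 0.97 (SD, n = 3; limma adjusted p = 0.143), below 0 on every array. Its 2 features differed by up to 1.62 on an array. KRT5, its type II partner, had 2.74 on array 1 and -0.79 on array 2 (interval of the mean -2.78 to 4.73), so its arrays were on opposite sides of 0. KRT15, a type I chain of basal and hair bulge stem cells, had 0.43, 1.09 and 2.66, a mean of 1.39 ± 1.15 (SD, n = 3; adjusted p = 0.295), above 0 on every array. Its values on arrays 1 and 2 were inside the narrow peak. KRT15 had the smallest unadjusted p among the keratins above 0, 0.0745. At the better place KRT15 was above 0 on arrays 1 and 2 but had -1.90 on array 3. Lying above 0 on every array therefore holds for its own place. KRT17, a further basal keratin, had no feature with that symbol alone.

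The activation keratins were represented by KRT16 and KRT6C, since KRT6A and KRT6B had no feature with that symbol alone. KRT16, the type I chain induced in wounded or hyperproliferative epidermis, had the smallest spread of the keratins far below 0, with -2.89, -3.02 and -3.04, a mean of -2.98 ± 0.08 (SD, n = 3; interval -3.88 to -2.09). Its unadjusted limma p of 0.000856 was the smallest of the 41 keratins (adjusted p = 0.0788). Its 2 features differed by 0.51 at most on an array. The better place is the earlier row for both features on all 3 arrays. There KRT16 had 0.81, -3.44 and -3.51, so the small spread holds for the own place. KRT6C, a type II chain of the same tissues with near-identical sister genes that its probe may also bind (not tested), had 0.87, -1.47 and -2.46, with array 1 apart from the others (adjusted p = 0.488).

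Keratins of differentiating stratified epithelia had a median of -0.12, with 3 of 9 below 0 and 3 of 9 above 0 on every array. KRT77, a type II chain of sweat gland ducts, had -2.56, -2.66 and -3.11 from 2 features (mean -2.77 ± 0.29, SD, n = 3; limma adjusted p = 0.0788). KRT3, the type II chain of the cornea, had -2.25, -2.55 and -2.82 (mean -2.54 ± 0.29, SD, n = 3; adjusted p = 0.0788). KRT12, the corneal type I chain that pairs with KRT3, had 0.86, 0.67 and 0.62, so at the own place the corneal partners stood on opposite sides of 0 on every array, and the difference between them, KRT12 minus KRT3, was 3.11, 3.22 and 3.45. The better place is the earlier row for KRT3 on all 3 arrays, and there KRT3 had 0.72, 0.46 and 0.71 and KRT12 had 2.13, 0.68 and 0.63, on the same side of 0. KRT4, a type II chain of mucosa, had 0.67, 0.83 and 0.40, and KRT76, a type II chain of the palate, had 0.50, 0.50 and 0.59. KRT13, the mucosal type I partner of KRT4, had 0.73 on array 1 but -1.90 and -1.83 on arrays 2 and 3. KRT9, of palms and soles, had -0.33 and -0.84 on arrays 2 and 3. KRT1, of the suprabasal epidermis, had 0.23, -0.77 and 0.30, and KRT79 had 0.32, 0.33 and -1.0. Adjusted limma p of KRT13, KRT9, KRT1 and KRT79 ran from 0.456 to 0.905.

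Keratins of the inner root sheath, the sleeve that guides a growing hair, and of the companion layer around it held the lowest and the highest member. KRT75, the type II chain of the companion layer, had -4.85, -3.24 and -4.07, a mean of -4.05 ± 0.80 (SD, n = 3; interval -5.35 to -2.76; limma adjusted p = 0.0788). KRT25, a type I chain of the inner root sheath, had -3.51, -4.06 and -2.89 (mean -3.49 ± 0.58, SD, n = 3; adjusted p = 0.0788). KRT73 had -2.99 and -3.20 on arrays 2 and 3, and KRT72 had -1.55, -2.77 and -2.41 (mean -2.25 ± 0.63, SD, n = 3; adjusted p = 0.0984); both are type II chains of the same sheath. Others of the class lay at the narrow peak: KRT27 had 0.69, 0.50 and 0.44, and KRT74 had 0.35, 0.54 and 0.74. KRT71 had 0.20, -0.15 and -0.20. KRT28 had 0.58 on array 1 and 2.72 on array 2, the highest mean of the 41 keratins at 1.65 (interval -0.90 to 4.21). KRT26 had 3.28, 0.83 and -1.81 and so crossed 0 between arrays.

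Genes next to each other in a cluster were compared for their side of 0. In the RefSeq order of GRCh38.p14, KRT25, KRT26, KRT27 and KRT28 follow each other among the type I keratins, and KRT71, KRT74, KRT72 and KRT73 among the type II keratins. KRT25 lay below 0 and KRT27 above 0 on all 3 arrays, and KRT73 lay below 0 on both its arrays while KRT74 lay above 0 on all 3. At the better place KRT74 had a mean of -0.58, on the side of KRT73, and KRT25 had -3.51 and 0.06 on arrays 1 and 2, so these contrasts hold for the own place. Over both clusters, 15 of 29 pairs of keratin genes next to each other had means on the same side and 14 on opposite sides. The start regions of these 4 genes, which are near each other and stood on opposite sides at the own place, are shown to set their sequences beside their values. Each runs from 250 bases before to 50 bases after the start (RefSeq, GRCh38.p14), 5′ to 3′ on the gene's strand, and capitals mark TATAAA.
KRT25, chr17:40755282-40755581, minus strand: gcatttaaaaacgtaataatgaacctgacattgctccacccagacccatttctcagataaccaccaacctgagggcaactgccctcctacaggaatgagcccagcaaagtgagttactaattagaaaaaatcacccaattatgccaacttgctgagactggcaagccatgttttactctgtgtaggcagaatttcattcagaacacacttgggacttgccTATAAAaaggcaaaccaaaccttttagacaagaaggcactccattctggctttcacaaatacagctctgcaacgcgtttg
KRT27, chr17:40782501-40782800, minus strand: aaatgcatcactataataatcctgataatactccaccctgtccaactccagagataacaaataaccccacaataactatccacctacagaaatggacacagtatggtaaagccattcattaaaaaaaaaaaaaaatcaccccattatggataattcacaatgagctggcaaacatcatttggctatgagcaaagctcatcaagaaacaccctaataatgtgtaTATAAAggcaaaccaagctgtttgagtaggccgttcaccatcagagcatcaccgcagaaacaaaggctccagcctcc
KRT73, chr12:52618510-52618809, minus strand: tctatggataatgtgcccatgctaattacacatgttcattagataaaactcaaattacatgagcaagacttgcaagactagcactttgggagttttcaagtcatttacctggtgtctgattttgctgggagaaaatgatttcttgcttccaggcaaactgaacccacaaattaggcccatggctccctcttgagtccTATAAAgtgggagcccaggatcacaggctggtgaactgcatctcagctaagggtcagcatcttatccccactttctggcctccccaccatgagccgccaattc
KRT74, chr12:52573794-52574093, minus strand: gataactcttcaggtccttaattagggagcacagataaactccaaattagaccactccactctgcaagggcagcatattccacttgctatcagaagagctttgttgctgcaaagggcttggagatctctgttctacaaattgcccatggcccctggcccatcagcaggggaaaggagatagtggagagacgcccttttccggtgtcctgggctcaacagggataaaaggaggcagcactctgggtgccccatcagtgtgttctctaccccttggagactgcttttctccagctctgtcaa
TATAAA stands 30 bases before the start of KRT25, 27 before that of KRT27 and 53 before that of KRT73, and on neither strand of the KRT74 window. Searched on both strands, it was in the windows of 15 of 26 keratin members found in the table (57.7%) and in 11.5% of 35116 windows. CTTTGA, a core bound by LEF1 and TCF factors, was in 8 of 26 (30.8%) and in 12.9% of all windows, and in none of the 4 shown. KRT25 and KRT27 both hold TATAAA.

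Hair shaft keratins, the cysteine-rich chains of hair and nail, had a median of -0.14, a difference of 0.38 from all tested genes that was -0.76 without array 1 and -0.48 without array 3. KRT83, a type II chain of the hair cortex, was lowest, with -1.24, -0.85 and -2.54 (mean -1.54 ± 0.88, SD, n = 3; limma adjusted p = 0.204), and lay below 0 on every array. KRT31 had -0.13, -2.11 and -1.75 and was below 0 on every array too (adjusted p = 0.292). At the better place KRT31 had -5.42, 0.34 and 0.52, so for it this holds for the own place. KRT33A had -2.38 and 0.06 on arrays 1 and 2, and KRT33B had -2.21 and 0.04 on arrays 1 and 3, so at the own place both were low on array 1 alone. At the better place KRT33A had -0.46, -2.91 and -2.80 on arrays 1, 2 and 3, and KRT33B had -2.21, 0.10 and -0.29. KRT38 was highest, with 0.60, 0.51 and 1.76 from 2 features (adjusted p = 0.321). KRT35 had -0.10 and 1.75 on arrays 1 and 3. KRT34 had 0.43 and -0.17 on the same arrays, KRT85 0.27 and -0.55, and KRT32 1.45, -0.65 and -1.15. The SD across arrays was smaller than the distance of the mean from 0 for KRT83, KRT31 and KRT38, and larger for the other 6 hair shaft genes.

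The remaining keratins, in none of these classes, were KRT23, KRT24, KRT80 and KRT222. KRT23 had 0.70, 0.77 and 0.39, inside the narrow peak. KRT24 had -0.07, -1.70 and -3.96, and KRT222 had 0.22 on array 1 and -1.78 on array 3. KRT80 had -5.35 on array 2 and -0.17 on array 3, each from a different feature, with an interval of -8.04 to 2.51. Another 5 genes had a value on 1 array and were not tested: KRT10 had 0.39 and KRT37 -1.82 on array 1, KRT36 had -1.53 on array 2, and KRT2 had 0.38 and KRT40 0.51 on array 3. Of 55 keratin symbols listed by type, 9 had no feature with that symbol alone, namely KRT6A, KRT6B, KRT17, KRT39, KRT78, KRT81, KRT82, KRT84 and KRT86.

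Type I and type II keratins had nearly the same median, -0.59 over 23 type I genes and -0.63 over 18 type II genes. On arrays 1, 2 and 3 the type I median was 0.43, -0.33 and -1.09 and the type II median 0.25, -1.10 and -1.0. The difference, type I minus type II, was 0.18, 0.77 and -0.09 (mean 0.29 ± 0.44, SD, n = 3), within the spread between arrays. Over gene means it was 0.05, and 0.79 without array 1, 0.47 without array 2 and 0.68 without array 3. At the better place it was 0.60, but -0.30 read 1 row earlier and -0.0043 with the values as deposited, so its sign depended on the setting. In counts, 13 of 23 type I genes (56.5%) and 14 of 18 type II genes (77.8%) had a mean below 0, beside 64.8% of all tested genes. At an unadjusted limma p under 0.05, 5 of 23 type I genes (21.7%) and 7 of 18 type II genes (38.9%) lay below, beside 19.7% of all genes. In the inner root sheath and companion layer, 1 of 4 type I and 4 of 5 type II genes had a mean below 0. None of these differences between types was tested.

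**Figure D3:**
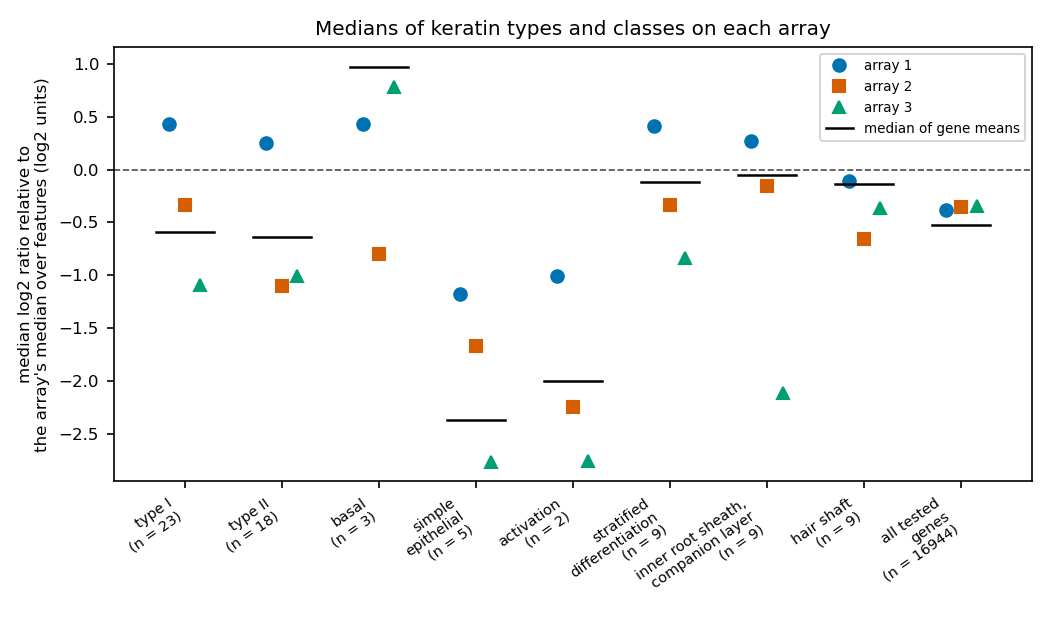
Median log2 ratio relative to the array's median over features (y axis, log2 units) of the keratin types and classes and of all tested genes, with a marker for each array and a line for the median of the gene means. Type I and type II overlap across arrays, while simple epithelial keratins lie below all tested genes on every array, at -1.18, -1.66 and -2.76.

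Among the classes, basal minus simple epithelial keratins gave a difference of medians of 1.61, 0.87 and 3.55 on arrays 1, 2 and 3 (mean 2.01 ± 1.38, SD, n = 3). Hair shaft minus simple epithelial keratins gave 1.08, 1.01 and 2.40 (mean 1.50 ± 0.79, SD, n = 3). Both were positive on 3 of 3 arrays at the own place, but not under every setting. With 3 arrays required, the medians relative to all tested genes were 0.27 for basal, -0.11 for hair shaft and 0.36 for simple epithelial keratins. Read 1 row earlier, basal keratins had -0.81 and simple epithelial keratins -0.60, and without array 3, hair shaft keratins had -0.48 and simple epithelial keratins 0.13. Hair shaft minus basal keratins gave -0.53, 0.14 and -1.14 (mean -0.51 ± 0.64, SD, n = 3), a difference within the spread between arrays. Different genes had values on different arrays, and 3 basal and 5 simple epithelial genes stand behind these medians, so they describe few genes.

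Chains that pair in filaments were compared on the arrays where both had a value. KRT18 minus KRT8 was -1.92 on array 1 and 0.59 on array 3, and both chains were far below 0 on both arrays. KRT14 minus KRT5 was -5.77 and -1.31 on arrays 1 and 2. KRT16 minus KRT6C was -3.77, -1.55 and -0.59, and KRT13 minus KRT4 was 0.07, -2.74 and -2.23. In these 3 pairs the chains stood on opposite sides of 0 on at least 1 array. KRT19 minus KRT7 was -0.62 and -2.90 on arrays 2 and 3, and KRT35 minus KRT85, of the hair shaft, was -0.37 and 2.29 on arrays 1 and 3. Of the 7 pairs compared, KRT12 with KRT3 included, KRT18 and KRT8 alone stood on the same side of 0 on each array where both had a value, read at the own place. At the better place this also held for KRT14 with KRT5, KRT19 with KRT7 and KRT12 with KRT3.

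The order of the keratins was compared between arrays. The rank correlation over keratins was 0.67 between arrays 1 and 2 (31 genes), 0.56 between arrays 1 and 3 (34 genes) and 0.77 between arrays 2 and 3 (32 genes), beside 0.32, 0.26 and 0.49 over all tested genes. Arrays share the dye assignment and the narrow peak, and genes are not independent replicates, so these correlations are a description. Features of the same keratin gene on the same array differed by a median of 0.73 (23 pairs of 5 genes, 13 of them of KRT18), beside 1.69 over 24111 pairs of genes with 2 to 4 features. Read 1 feature row earlier, the keratin pairs differed by 1.38 (24 pairs of 7 genes) and all pairs by 1.64.

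Reading each of 5 stretches of each array at its better place changed several members. Of the 55 keratin features, 46, 29 and 29 lay on arrays 1, 2 and 3 in stretches where the earlier row was better. At the better place, 33 of 41 keratins kept the sign of their mean. Of the 16 that lay below 0 on every array, 14 had a mean below 0 there, beside 65.2% of all genes. Of the 12 with an unadjusted limma p under 0.05, 6 had one again, below 0. In all, 12 keratins had one below 0 there and 0 above, beside 20.8% and 0.896% of all genes. At the better place KRT75 had a mean of -3.40, KRT73 -2.98, KRT18 -2.82, KRT19 -2.36, KRT8 -2.18 and KRT14 -1.86. KRT16 had -2.05, KRT25 -1.73 and KRT77 -1.14. The mean of KRT77 there rested on array 3, with 0.55, 0.61 and -4.57 on arrays 1, 2 and 3. The mean changed side at the better place for 8 of 41 keratins. KRT3 had 0.63, KRT72 0.69, KRT1 0.50 and KRT32 0.46, while KRT5 had -1.81, KRT28 -3.02, KRT74 -0.58 and KRT26 -0.06. Where the better place was the own place, the same values entered both readings, so the agreement is partly built in. KRT8, whose better place is the earlier row on all 3 arrays, had a mean below 0 at both places. KRT18 and KRT19 did too, but KRT19 kept the same 2 values and KRT18 changed on array 1 alone, so for them this was largely fixed in advance. With every value read 1 row earlier, KRT18 had a mean of -0.99 and KRT19 of -1.14. In that reading, 9 keratins lay below at an unadjusted limma p under 0.05 and 0 above, beside 20.6% and 0.851% of all genes. Of the 12 that lay below at the own place, 11 had a value there and 3 lay below at that p again. The mean changed side there for 12 of 39.

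**Figure D4:**
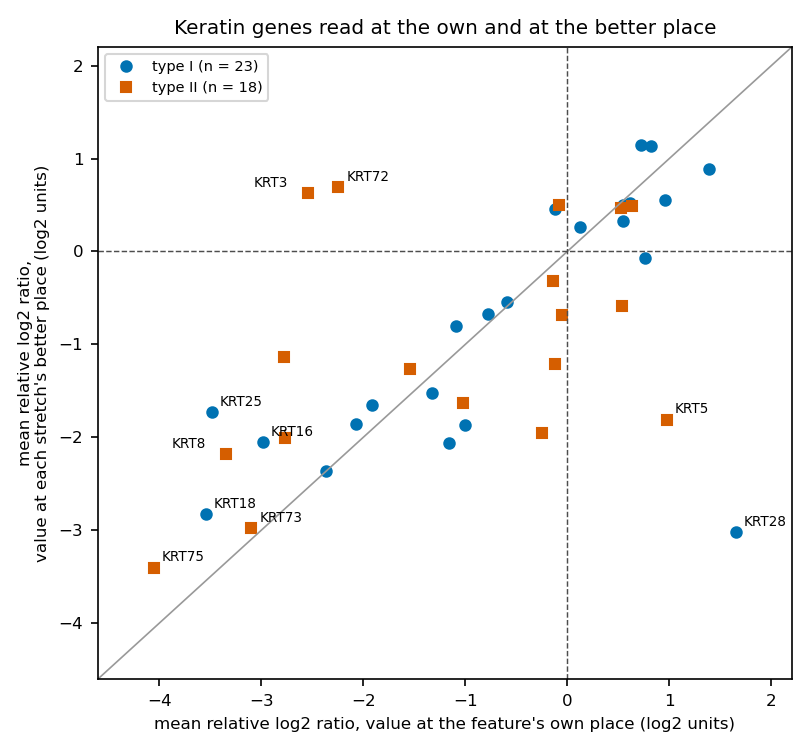
Mean relative log2 ratio of each keratin gene read at its feature's own place (x axis, log2 units) and at the better place of each stretch (y axis, log2 units), with circles for type I and squares for type II genes and a line of equality. KRT75, KRT18 and KRT73 stay below -2.5 at both places, with the same feature values on arrays 2 and 3, where their better place is the own place. KRT3, KRT72, KRT5 and KRT28 change side.

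Genes that anchor keratin filaments, bind them or switch them on had no call either (adjusted limma p from 0.0788 upward in 5 lists, 0% of all genes called). Of 16 desmosome and hemidesmosome genes, 7 had an unadjusted p under 0.05 below 0 and 0 above, beside 19.7% and 0.838% of all genes, with a median of -0.66. The plakophilin PKP3 had -3.84, -2.39 and -2.91 and the desmocollin DSC2 -5.22 and -2.65 on arrays 1 and 3, while PKP1 had 1.62 and 0.97 on arrays 2 and 3 and the integrin ITGB4 0.75, 4.31 and 0.09. At the better place the means were -1.50 for PKP3, -1.76 for DSC2, 1.30 for PKP1 and -3.04 for ITGB4. With every value read 1 row earlier, PKP3 had a mean of 2.01 and PKP1 of -3.19, each on the other side of 0. Of 6 measured keratin-binding regulators, 1 was below at that p, the adaptor YWHAZ with a mean of -1.34; FAM83H, which recruits casein kinase to keratins, had -1.01, and TCHP, trichoplein, had 0.61.

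All 12 measured transcription factors of keratin genes had a mean below 0, beside 64.8% of all genes, with a median of -1.45. At an unadjusted p under 0.05, 3 of 12 lay below, beside 19.7% of all genes. CEBPB had -1.13, -1.79 and -2.62 (limma adjusted p = 0.136), and TFAP2C had -2.95, -4.36 and -1.28 (adjusted p = 0.146). Between the own and the better place, the mean of CEBPB went from -1.85 to -2.66 and that of TFAP2C from -2.86 to -0.40. On every array with a value, 5 of the 12 lay below 0, against 32.4% of all genes. Other intermediate filament genes had a median of -0.87, with 6 of 15 below at an unadjusted p under 0.05 and 0 above, beside 19.7% and 0.838% of all genes. DES, desmin of muscle, had -2.63, -2.13 and -2.70, and NES, nestin, had -3.37, -2.34 and -2.50, while BFSP1 of the lens had 0.69, 0.61 and 0.54 and the lamin LMNB2 0.69 and 2.40 on arrays 1 and 2. At the better place the means were -2.21 for DES, -1.94 for NES and 0.44 for LMNB2, and BFSP1 had none. With every value read 1 row earlier, NES had a mean of -0.22.

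Keratin-associated protein genes, whose products cross-link hair keratins, had a median of -0.65 over 37 measured genes, 1 of them an antisense RNA gene whose symbol starts alike. Means in this list ran from -3.12 to 8.59. On every array with a value, 4 of 37 lay above 0 and 10 of 37 below, beside 20.4% and 32.4% of all genes. At an unadjusted p under 0.05, 7 of 37 lay below and 0 above, beside 19.7% and 0.838% of all genes, so the share below was near that of all genes. KRTAP15-1 had -3.10, -2.82 and -2.99 and KRTAP10-10 -3.29, -2.66 and -3.41 (limma adjusted p = 0.0788 each), while KRTAP1-1 had 0.74, 2.08 and 0.46 and KRTAP4-11 0.37, 2.25 and 0.66. At the better place the means were 0.54 for KRTAP15-1, -2.98 for KRTAP10-10, 0.33 for KRTAP1-1 and 1.37 for KRTAP4-11.

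Markers of other cell types that a culture could hold gave means between -0.79 and 0.96 and no call. Of 4 measured fibroblast genes 2 had a mean above and 2 below 0, between -0.51 and 0.96. Of the leukocyte genes 2 were measured, CD3E at 0.64 and PTPRC at -0.42, and of the endothelial genes 3, between -0.79 and 0.83. These are ratios, and the presence of such cells was not tested. Of 7 measured mammary epithelial markers, 4 were above and 3 below 0, with CDH1 at 0.71 and EPCAM at 1.80 beside the keratins given above.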

How the data were processed

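The authors deposited 1 table of log2 ratios of both channels, with 45220 features on each of 3 arrays; per the labels, the obscurin shRNA cells are channel 1 (Cy5) and the control shRNA cells channel 2 (Cy3). Scanner, normalization and logarithm base: not given in the sources used here. The base was read from the values, and centring and direction are not stated. As deposited, the most repeated value was 2.06, 1.97 and 2.00 on arrays 1, 2 and 3, and the top value was 18.67, 18.58 and 18.61. What these values say of the original zero was not tested. Values were present for 78.5% to 79.8% of features.

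Each array was centred on its median over features, features with 1 symbol (31332, of which 31291 matched RefSeq GRCh38.p14 by Entrez identifier) were averaged per gene, and genes with values on at least 2 arrays were kept, 12550 on 3 arrays and 4394 on 2. In R 4.3.3, lmFit and eBayes of limma 3.58.1 set each mean against 0 (two-sided), with Benjamini-Hochberg adjustment over all 16944 genes and a threshold of 0.05; intervals cover 95%. The number of arrays limits the precision. No p was given to a median over keratins. Some keratins are near-identical, and binding of a probe to a sister gene was not tested. The better place was that with the higher intraclass correlation of ranks among repeated features.

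Values on every array were to be given for all basal, simple epithelial and activation keratins and the 3 highest and 3 lowest of each other class; the rest are named as members. Of each related list, up to 2 genes a side with the smallest p are named. CDH1, EPCAM and the leukocyte genes were named after their values were seen. The rule's grouping by over 85% protein identity was not used here. Members, classes and lists were chosen with earlier results of these data known. Alternatives covered the zero point, quantile normalization, arrays required, summary of features, top values, place, robust eBayes, single features and leaving out an array.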

Additional observations from a re-analysis of the deposited data

How the results depend on the processing

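No separate paired fit was run, because each array sets both cultures side by side. Each log2 ratio is already the difference within a pair, and the test of its mean against 0 uses that pairing. KRT17 had no feature, so its move to another class gave no value, and no fit could tell the dye from the shRNA. With 0 at the most repeated value, genes past an adjusted p of 0.05 numbered 2 above and 1392 below, 7 of them keratins below, and at an unadjusted p there were 22 above and 5276 below. As deposited, the unadjusted counts were 5201 above and 894 below, with 13 keratins above; with 0 at the median of tested genes 844 genes lay above, 6 of them keratins. Feature by feature they were 550 above and 7191 below. Leaving out an array gave 52 to 119 genes above and 1965 to 3243 below, and 8 to 14 keratins below. At an adjusted p, the other settings gave 0 genes either way, which shows neither stability nor absence of change.

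The medians of classes moved with the genes and arrays used, and the cause was not tested except where fewer genes entered. Type I minus type II, 0.05 over gene means, was 0.60 at the better place and 0.47 to 0.79 with an array left out. It was -0.30 read 1 row earlier and -0.0043 as deposited, on the other side of 0. Basal keratins, 1.49 above all tested genes, lay 0.27 above with 3 arrays required, -0.81 relative to all genes 1 row earlier, -1.28 at the better place and 0.33 to 1.33 with an array left out. Simple epithelial keratins, at -1.85 relative to all genes, had 0.36 with 3 arrays required, -0.60 1 row earlier and -0.95 to 0.13 with an array left out. Hair shaft keratins, at 0.38, had -0.11 with 3 arrays required and -0.76 to 0.59 with an array left out. Of the keratins named, 13 of 41 changed sign as deposited, 12 of 39 read 1 row earlier, 8 of 41 at the better place, 6 of 41 with either other zero, and 1 to 4 with an array left out.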
